A study of Mus musculus with 4 samples.

Results

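The mouse genes described here are the molecular chaperones, their co-chaperones and the heat shock factors that control many of them, as drawn in the gene annotation of a study of RNA polymerase I (Pol I). They were picked by name: symbols that start with Hsf and a digit, Hspa, Hspb, Hspd, Hspe or Hsph and a digit, Hsp90, Dnaja, Dnajb or Dnajc and a digit, Cct2 to Cct8, or Bag1 to Bag6. The rule found 93 genes on the assembled chromosomes, of 26125 gene symbols there, and all 93 had a coding transcript, as did 20992 symbols in all. The 93 genes hold 213 transcripts, out of 47116. A pair of them carry the name for other reasons. Hsf2bp encodes a binding partner of the factor HSF2, and Hspb11 encodes the ciliary transport protein IFT25, so neither name alone makes a heat shock factor or a chaperone.

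The study itself mapped Pol I on chromatin by CUT&Tag, in which an antibody brings a transposase to the bound protein and adapters are inserted nearby. There were 4 libraries from the C64 mouse embryonic stem cell line, 2 from cells given 500 nM auxin for 6 h and 2 from untreated control cells. Auxin is used in engineered animal cells to make a protein with a degron tag be destroyed. The labels name neither such a tag nor a clone, and do not tell whether the libraries of a group had separate cultures behind them. The only table analysed gives positions and no value for any library, so Pol I occupancy in auxin and control cells, its depth and the cell type's markers were not analysed here. The lengths and counts below are fixed features of the mm10 annotation. They have no replicate error, no test was run on them, and each share of the 93 genes stands beside the same share of all coding genes only as a description.

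Chaperones hold unfolded proteins and help them to fold. Hsp70 proteins (Hspa genes) bind short hydrophobic stretches in a cycle driven by ATP, J-domain proteins (Dnaj genes) bring substrates and start the cycle, and Hsp110 (Hsph1) and BAG proteins release the nucleotide and so end it. Hsp90 proteins act late, on nearly folded clients such as kinases and receptors, the chaperonins HSP60 and CCT enclose a substrate in a chamber, and small heat shock proteins (Hspb genes) hold aggregating proteins without ATP. When unfolded proteins build up, HSF1 forms trimers and binds heat shock elements, which are alternating GAA and TTC units in the promoters of the inducible genes.

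The J-domain proteins were the most numerous, with 28 Dnajc, 13 Dnajb and 4 Dnaja genes. Sorted by name, there were 13 Hsp70 genes, Hspa4 of the Hsp110 family included, and 1 Hsp110 gene, Hsph1. There were also 3 Hsp90 genes, 9 CCT genes (Cct8l1, a relative of Cct8, included) and the chaperonins Hspd1 and Hspe1. The rest were 8 genes named as small heat shock proteins, 6 BAG genes and 6 genes named Hsf. All members together lay on 20 chromosomes, with chromosome 4 holding the most, 10. For each gene the transcript with the longest coding part was taken as its representative. By that measure the median gene of the set spanned 16973 bases with 8 exons and 1374 coding bases, against 16278 bases, 7 exons and 1221 coding bases for all coding genes. The families differed in size. Small heat shock protein genes had a median span of 1894 bases and 3 exons, while the Dnajc genes had a median span of 28343 bases and 7 exons. Dnajc13, which acts in endosomal traffic, had the most exons of any member, 57 over 111334 bases. The longest member, Dnajc1, a J-domain protein of the endoplasmic reticulum (ER) membrane, spanned 179082 bases with 12 exons, and Hspa12a, a distant Hsp70 relative, spanned 147923 bases, of which 70.0% was a single intron.

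**Figure D1:**
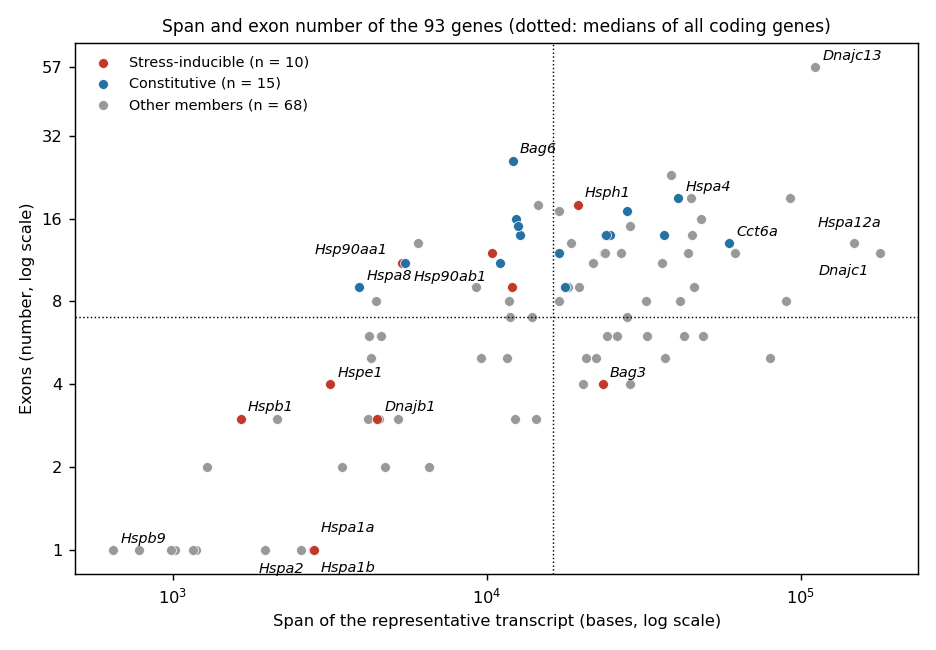
Span in bases (x axis) and exon number (y axis), both on log scales, of the representative transcript of each of the 93 genes. Red points are the 10 stress-inducible genes, blue points the 15 constitutive genes and grey points the other 68, and dotted lines are the medians of all coding genes (16278 bases, 7 exons). Red points reach down to 1 exon for Hspa1a and Hspa1b, while no blue point lies below 9 exons.

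The regulators come first. Hsf1, whose product switches on the response to heat, had 14 coding exons on the plus strand of chromosome 15 (76477362 to 76501155), and 76.7% of its span was a single intron of 18252 bases. Its 7 transcripts shared a start and an end and differed inside. The 5 coding ones had coding parts of 1662, 1596, 1578, 1512 and 1434 bases. The 1596-base form lacks an exon of 66 bases, the 1578-base form lacks an exon of 84 bases, and the 1512-base form lacks both. Both skipped lengths are multiples of 3, so the reading frame goes on. The remaining 2 Hsf1 transcripts had no coding part.

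The other factors were drawn quite differently from each other. Hsf2, which works beside HSF1 and in development, had a single transcript of 12 exons over 26759 bases. Hsf4, the lens factor, was the most compact at 6045 bases with 13 exons, and had 4 transcripts, of which 3 were coding. Hsf5, a testis factor, had 6 exons over 42379 bases and a 3' UTR of 2175 bases, against 533 bases for Hsf1. Hsf3 on chromosome X had 3 coding transcripts whose starts lay up to 99049 bases apart, more than for any other member. Its representative form, with 1479 coding bases, began at position 96367919 on the minus strand and had 0 bases of 5' UTR, so it starts at its first codon. The form that began farthest upstream, at 96456294, had 1107 coding bases and a 5' UTR of 544 bases. In coding exon lengths, Hsf1 and Hsf2 shared 5 in the same order (of 14 and 12 exons), Hsf1 and Hsf4 shared 6, and Hsf1 and Hsf5 shared 0.

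By their medians, the stress-inducible genes were shorter and had fewer exons than the constitutive ones. The 10 genes taken as inducible from textbook knowledge had a median of 4 exons (range 1 to 18) and a median span of 4919.5 bases (1645 to 23399). The 15 genes taken as constitutive in the same way had a median of 14 exons (9 to 26) and a median span of 16973 bases (3927 to 59088). The groups overlap in both measures. Of the inducible genes, 6 had fewer exons than every constitutive gene: the Hsp70 genes Hspa1a and Hspa1b with 1 each, the small heat shock protein gene Hspb1 and the J-domain gene Dnajb1 with 3 each, and Bag3, which links Hsp70 to autophagy, and Hspe1, which encodes the lid of mitochondrial HSP60, with 4 each. The other 4 fell inside the constitutive range. Dnaja1, an Hsp40 of the cytosol, had 9 exons, Hsp90aa1 had 11, Hspd1 (HSP60) had 12 and Hsph1 had 18. Bag3 also shows that few exons need not mean a short gene, with 23399 bases of span and an intron of 15928 bases.

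Relatives with the same work give the closest comparison. Hspa1a and Hspa1b had 1926 and 1929 coding bases in 1 exon each, while Hspa8, the constitutive Hsp70 of the cytosol, had 1941 coding bases cut into 8 coding exons over 3927 bases. Inducible Hsp90aa1 and constitutive Hsp90ab1 differed little, with 11 exons each, spans of 5360 and 5484 bases and an intron inside the 5' UTR of both. That first intron measured 571 bases in Hsp90aa1 and 1255 bases in Hsp90ab1. In the Hsp110 family, inducible Hsph1 spanned 19471 bases with 18 exons and constitutive Hspa4 spanned 40666 bases with 19. Among constitutive genes, the 7 CCT subunits ran from 11 to 16 exons, and Cct6a, the longest at 59088 bases, had 85.4% of its span in a single intron of 50465 bases. With these 7 genes left out, the constitutive medians were 14 exons and 20845 bases, so the direction did not rest on CCT.

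The untranslated regions (UTRs) of the inducible genes had the longer medians. In the 5' UTR the inducible genes had a median of 231 bases (140 to 276), and the constitutive genes had a median of 114 bases (23 to 617), beside 139 bases for all 93 members and 136 for all coding genes. All 10 inducible genes, and 6 of the 15 constitutive genes, lay above that last value. Bag3 had the longest inducible 5' UTR with 276 bases and Hspb1 the shortest with 140. Cct7 stood far above the other constitutive genes with 617 bases, and Dnajc7, a J-domain protein that binds both Hsp70 and Hsp90, had the shortest with 23.

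The 3' UTRs of the inducible genes had a median of 613 bases (133 to 2019) and those of the constitutive genes 218 bases (58 to 1798), beside 623 bases for the 93 members and 685 for all coding genes. Neither list's median stood above that of all coding genes. A 3' UTR under 300 bases was found in 33 of the 93 members (35.5%), beside 31.3% of all coding genes. By list, it was found in 2 of 10 inducible genes (Hspb1 with 133 and Hspe1 with 197) and 11 of 15 constitutive genes, among them Dnajc2, a J-domain protein at the ribosome, with 58 bases, Hspa8 and Bag6 with 85 each, and 5 of the 7 CCT genes. Dnaja1 with 2019 and Dnajb1 with 1834 bases stood above the other inducible genes. Hspa4 with 1798 and Dnaja2 with 1583 bases stood above the other constitutive ones.

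**Figure D2:**
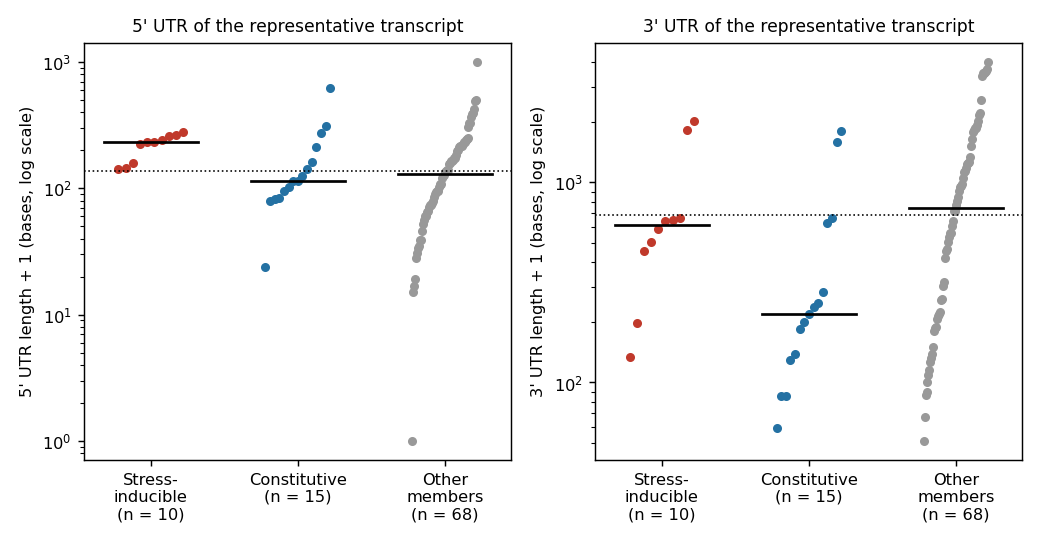
Length of the 5' UTR (left) and 3' UTR (right) of the representative transcript, in bases plus 1 on a log scale. Each point is a gene, ordered by length within its group, black bars are group medians and dotted lines are the medians of all coding genes. The 10 stress-inducible genes sit between 140 and 276 bases of 5' UTR, and 11 of the 15 constitutive genes have under 300 bases of 3' UTR.

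Over the whole set, the longest 5' UTR was that of Hspb7, a small heat shock protein of heart, with 1006 bases. The shortest after Hsf3 were those of Hspb9 with 14, Hsf2bp with 16 and Dnajc15 with 18 bases. The longest 3' UTRs were those of Dnajc18 (4016 bases), Dnajc27 (3678) and Hspa12a (3611), and the shortest was that of Cct8l1 (50 bases). In the representative transcript, an intron inside the 5' UTR was found in 24 members (25.8%), beside 33.0% of all coding genes. Dnajc5, the cysteine string protein of synaptic vesicles, had 2 such introns and the other 23 had 1. Among these 23 were Hspa8, both cytosolic Hsp90 genes, Hspd1, Dnaja1 and Bag6. Further members, Hspa5, Hspa2 and Dnajb1 among them, had such an intron only in a transcript other than the representative.

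Genes without introns were about as common here as elsewhere. All transcripts had 1 exon in 9 members (9.68%), beside 10.2% of all coding genes. Of these 9 genes, Hspa1a and Hspa1b are on the stress-inducible list. Dnajb3, Dnajb7, Dnajb8 and Hspb9 are known from testis, Hspb3 from muscle, Dnajc30 from mitochondria, and Cct8l1 is the CCT relative. These 9 genes had a median coding part of 729 bases and a median 3' UTR of 132 bases. The 84 members with an intron in some transcript had a median coding part of 1429.5 bases and a median 3' UTR of 662.5 bases. The 5' UTR did not go the same way, with medians of 184 bases in single-exon genes and 137 bases in the others. Hspa1a and Hspa1b stood apart within the 9 genes, with 1926 and 1929 coding bases and 3' UTRs of 641 and 650 bases. The smallest member, Hspb9, had 507 coding bases in a span of 647.

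The coding part lay inside 1 exon in 12 members (12.9%), beside 15.4% of all coding genes. The 3 genes that this adds have an intron before the coding part in at least some of their transcripts. Hspa1l, the testis Hsp70, kept its 1926 coding bases in 1 exon behind an intron of 4111 bases. Bag5, a multi-domain BAG protein, kept 1344 coding bases in 1 exon behind an intron of 1172 bases. Hspa2, the Hsp70 of spermatocytes, had a transcript of 1 exon and a second that began 194 bases upstream with an intron of 239 bases. Thus 4 of the 13 Hsp70 genes, Hspa1a, Hspa1b, Hspa1l and Hspa2, had an undivided coding part of 1902 to 1929 bases.

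Hspa1a, Hspa1b and Hspa1l form a cluster on chromosome 17 that covers 22800 bases. Hspa1b (34956429 to 34959238) and Hspa1a (34969359 to 34972156) lie on the minus strand with 10120 bases between them, and Hspa1l (34972703 to 34979228) follows on the plus strand, 546 bases from the start of Hspa1a. The starts of Hspa1a and Hspa1b are nearly the same in sequence. Of the 300 bases from 250 before each start to 50 after it, 296 (98.7%) were identical when aligned without gaps. A read from this stretch may therefore map to either gene, and signal assigned to just one of them would be uncertain.

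Starts on opposite strands, close together, were frequent. Another gene began within 1000 bases on the other strand for 34 members (36.6%), beside 13.9% of all coding genes. The pairs number 32, since Hspa1a with Hspa1l and Hspd1 with Hspe1 are each a pair of 2 members. Within 250 bases the shares were 25.8% of members and 9.21% of all coding genes. When both sides had to be coding they were 29.0% and 9.82%. Counting only head-to-head starts without overlap, they were 25.8% and 10.5%. The partner was a coding gene in 25 pairs, a long non-coding RNA in 6 and a miRNA in 1 (Mir5627, at Dnajb9). Taking the nearest starts of each pair, 26 pairs lay head to head without overlap, with a median of 178 bases between them, against a median of 143 bases over 1490 such pairs with a coding gene. In 9 of the 32 pairs some of the starts overlapped, and in 23 none did.

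The chaperonins account for many of these pairs. Hspd1 and Hspe1, whose products form the mitochondrial HSP60 chamber and its lid, overlap by 96 bases at the outer Hspd1 start and lie 215 bases apart at the inner one. Of the 9 CCT genes, 6 had a divergent neighbour. Cct6a lay 102 bases from Psph (phosphoserine phosphatase), Cct3 135 bases from Tsacc, which encodes a co-chaperone of a testis kinase, and Cct5 269 bases from Atpsckmt. Cct8 lay 203 bases from the long non-coding RNA B130034C11Rik, Cct6b 23 bases from Zfp830, and Cct7 202 bases from a start of Pradc1, while a longer Pradc1 form overlaps the Cct7 start by 466 bases. Cct2 and Cct4 had no such neighbour. By list, 4 of the 10 inducible genes (Hspa1a, Dnaja1, Hspd1, Hspe1) and 7 of the 15 constitutive genes had one.

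Hsf1, Hsf2 and Hsf3 each shared a start region as well. Hsf1 lay 112 bases from Bop1, a factor in the making of the large ribosomal subunit, Hsf2 lay 31 bases from the non-coding 4930467K11Rik, and the outermost Hsf3 start lay 51 bases from a start of Heph, a copper-dependent iron oxidase, and overlapped the other Heph start by 859 bases. Among the co-chaperones, Dnajc2 lay 109 bases from Psmc2, an ATPase subunit of the proteasome, and Bag1 258 bases from Chmp5 of the membrane-sorting ESCRT machinery. Hspa14, a ribosome-bound Hsp70 relative, lay 250 bases from Cdnf. Bag4 lay 381 bases from Lsm1, which acts in mRNA decay, and Bag5 12 bases from Coa8. Hspb2 lay 616 bases from the start that most transcripts of Cryab, another small heat shock protein gene, share, and a longer Cryab transcript runs across Hspb2.

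The pairs left had gaps of 74 to 366 bases or overlapped. Dnajc5g lay 74 bases from Slc30a3, Dnajc8 144 bases from Atpif1 and Hspb11 158 bases from Lrrc42. Dnajb11 lay 175 bases from Tbccd1, Hspa2 181 bases from 4930426I24Rik and Hspb6 234 bases from Proser3. Dnajb4 lay 338 bases from Fubp1, and Hsp90b1, the Hsp90 of the ER, 366 bases from Ttc41. For Dnaja1, the nearest of 6 pairs of starts with Gm6297 was 80 bases apart. The starts overlapped by 754 bases for Dnajc30 with Bud23, by 608 for Dnajc6 with Gm36012, by 248 for Hspa12a with Eno4, by 76 for Dnajc17 with Zfyve19 and by 39 for Dnajb6 with Gm5129.

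**Figure D3:**
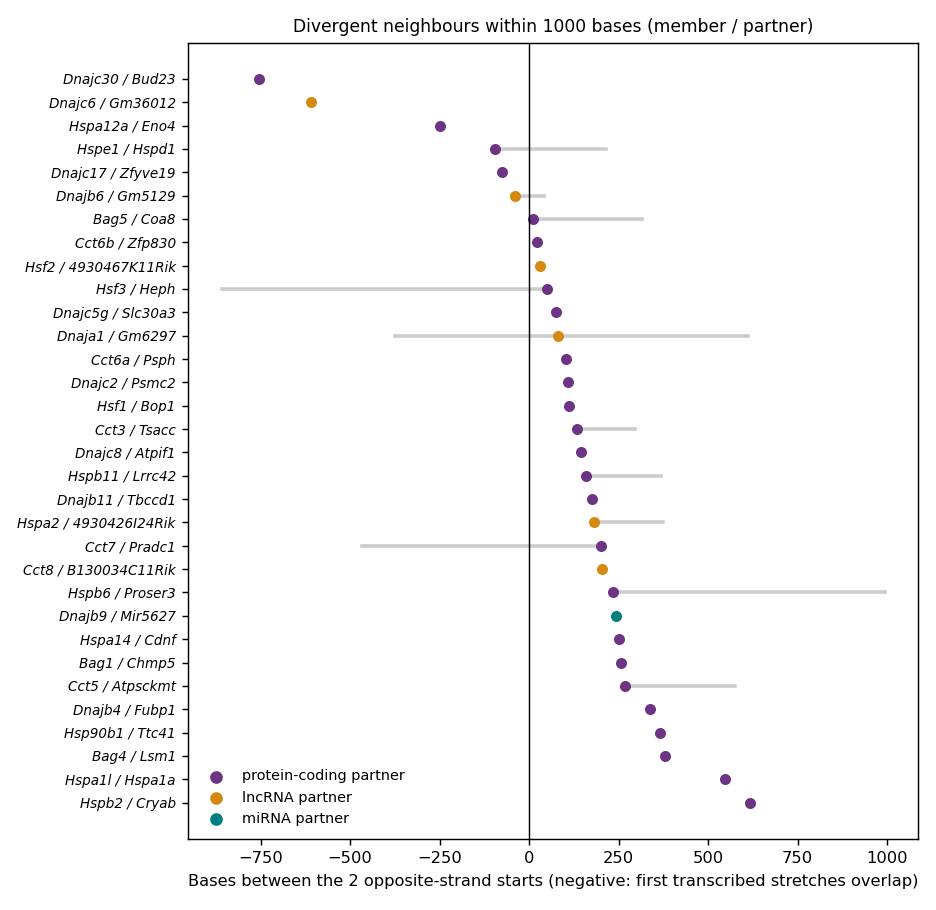
Bases between the starts of a member and an opposite-strand neighbour (x axis) for the 32 pairs, with the member named first. Points give the nearest pair of starts, coloured by the class of the partner, and grey bars give the range over all pairs of starts within 1000 bases. Values below 0 are overlaps, and 24 of the 32 points lie between 0 and 400 bases.

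Promoter sequences show where heat shock elements stand. RefSeq windows of 300 bases (build GRCm38.p6, 250 bases before the start and 50 from it) were found for 75 of the 93 genes, and all 95 windows began at a start of the annotation. Of the inducible genes 9 and of the constitutive genes 11 had a window. Inducible Hsp90aa1 and constitutive Hspa8, Hsp90ab1, Cct4 and Dnajc2 had none and were not searched. A heat shock element was searched as 3 units, GAA and TTC in turn, with 2 bases of any kind between units, on both strands. It was found in 4 members (5.33%), beside 0.605% of all 16846 coding genes with a window. They are Hspd1, Hspe1, Hsph1 and Dnajb6, a J-domain protein that holds back aggregation, so 3 of 9 inducible and 0 of 11 constitutive genes had it. Hspd1 and Hspe1 share the same site. A match is a run of letters, and binding of HSF1 was not measured.

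The exact elements are shown because their places differ: a start region shared by a pair of members, an exon of a neighbour, and the transcript itself. All are written 5' to 3' on the strand of the named gene, with the units and the bases between them in capitals. Coordinates in brackets cover the whole printed stretch, lower-case bases included, while distances from a start refer to the capitals. The Hspe1 element (chr1:55088054-55088081, plus strand) runs from 89 to 72 bases before the Hspe1 start and holds 4 units. The same bases, read from the other strand, lie 144 to 127 bases before the inner Hspd1 start and inside the first exon of the longer Hspd1 transcript. The Dnajb6 element (chr5:29735844-29735872, plus strand) begins 46 bases before the first Dnajb6 start, within an exon of Gm5129. The Hsph1 element (chr5:149636280-149636308, minus strand) lies in the 5' UTR. It begins at base 16 of the representative transcript and at base 37 of the other, which starts farther upstream.
Hspe1: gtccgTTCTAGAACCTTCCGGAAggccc
Dnajb6: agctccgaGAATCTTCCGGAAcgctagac
Hsph1: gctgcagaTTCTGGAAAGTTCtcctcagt

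Allowing 1 mismatch in the 9 fixed letters gave 18 members (24.0%), beside 7.46% of all coding genes, with 7 of 9 inducible and 3 of 11 constitutive genes (Cct2, Cct5 and Cct6a). Sites of the inducible genes are shown to compare their letters and their distance from the start. Coordinates again cover the whole printed stretch, and distances refer to the capitals. Hspa1a (chr17:34972248-34972275, minus strand) and Hspa1b (chr17:34959330-34959357, minus strand) carry the same 28 bases at the same distance, with the capitals 114 to 97 bases before the start. Hspb1 (chr5:135887794-135887822, plus strand) has its site from 117 bases before the start. For Dnaja1 (chr4:40722331-40722359, plus strand) it lies 129 bases before the first start and within an intron of Gm6297. Hsph1 has another site upstream (chr5:149636347-149636374, minus strand), from 54 bases before its inner start and 33 bases before its outer start.
Hspa1a: gacgcGAAACTGCTGGAAGATTCctggc
Hspa1b: gacgcGAAACTGCTGGAAGATTCctggc
Hspb1: caacaagaGAAGTTTCCAGATgggggcag
Dnaja1: aaaaaagcCTCTAGAAAATTCtacgaggc
Hsph1 upstream: aatctTTCTCGAAGGCTCGAGAAgaagg

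With 2 exact units in place of 3, 22 members (29.3%) had a match, beside 15.6% of all coding genes, and 8 of 9 inducible against 3 of 11 constitutive genes did. The search with 2 units also counts every site of 3 units. Bag3 came in at this setting, with a site at base 43 of its transcript. Dnajb1 was the inducible gene whose window held no match at any of the settings.

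Other promoter letters were looked up the same way. TATAAA, on the strand of the gene, was found in 4 members (5.33%), beside 9.73% of all coding genes. It began 29 bases before the start of Hspb6, 21 before Dnajc24, 11 before Hspb3 and 157 before Dnajc19, and none of these is on the inducible list. GGGCGG, on either strand, was found in 56 members (74.7%), beside 50.7%, and in 9 of 9 inducible and 10 of 11 constitutive genes. CCAAT, on either strand, was found in 32 members (42.7%), beside 42.6%.

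Some chaperones of the ER showed another element. It is a known motif named after ER stress, so finding it in ER genes is a description and not independent support. The ER stress element, CCAAT and CCACG with 9 bases between them, on either strand, was found in 3 members (4.0%), beside 0.172% of all coding genes with a window, and each of its sites is also a CCAAT site. The members are Hspa5 (BiP), the ER Hsp70, Hsp90b1 (GRP94), the ER Hsp90, with 2 sites, and Dnajc3, a J-domain partner of BiP, that is 3 of the 7 ER genes with a window. None of the 9 inducible and 11 constitutive genes with a window had it. The 4 sites are shown to compare their letters, with the outer blocks and the bases between them in capitals, 5' to 3' on the strand of the gene. Coordinates cover the whole printed stretch, and distances refer to the capitals. The first base lies 65 bases before the Hspa5 start (chr2:34772020-34772048, plus strand), 212 and 107 before the Hsp90b1 start (chr10:86705633-86705661 and chr10:86705528-86705556, minus strand) and 105 before the Dnajc3 start (chr14:118937822-118937850, plus strand). The nearer Hsp90b1 site is in the opposite orientation.
Hspa5: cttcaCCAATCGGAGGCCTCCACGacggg
Hsp90b1 far: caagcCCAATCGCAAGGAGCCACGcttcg
Hsp90b1 near: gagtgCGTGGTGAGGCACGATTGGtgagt
Dnajc3: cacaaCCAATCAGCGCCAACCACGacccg

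The 8 ER genes were long in the 3' UTR, with a median of 1222.5 bases (261 to 3518), against 685 bases for all coding genes. Dnajc3 had 3518 and Dnajc1 3508 bases, while Hsp90b1 had 261 and Hspa5 416. Their exon numbers ran from 3 in Dnajb9 to 23 in Dnajc10, a J-domain disulfide reductase. Hspa5 and Hspa8, Hsp70s of different compartments, each had 8 coding exons and shared 0 coding exon lengths in order.

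More than 1 transcript structure was drawn for 43 members (46.2%), beside 39.2% of all coding genes, and in 30 of them the coding part differed. That last count is given without a share over all coding genes, so it is not read as particular to the set. Starts at least 50 bases apart were drawn for 23 members (24.7%), beside 15.9%. Bag6, which guards hydrophobic proteins on their way to the ER, had 33 transcripts, 15.5% of all those of the set, in 12109 bases on chromosome 17. They had 23 to 26 exons, 17 different coding lengths from 3240 to 3573 bases and 1 shared end. They began at 3 starts, with 11 transcripts at 35135213, 13 at 35135500 and 9 at 35135744. None of the inducible genes had more than 3 transcripts, and the median was 1 in the inducible and 1 in the constitutive list.

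Dnajb6 had 7 transcripts, and differed from Hsf1 in having several ends, up to 28510 bases apart, with coding parts of 726 to 1119 bases in 6 of them. Dnajb5 had 6 transcripts with 3 coding structures. Dnajc6 (auxilin), which strips clathrin from vesicles with Hsp70, had 6 transcripts from starts up to 53946 bases apart, and their coding parts ranged from 2703 to 2907 bases. Starts also lay far apart in Hspa12a (82688 bases), Dnajc5b (22652), Dnajb4 (16238), Dnajc7 (6275) and Dnajc12 (4120). Of the 213 transcripts, 12 in 9 genes had no coding part, among them 2 each of Hsf1, Hspa14 and Dnajc7. The share over all transcripts of these genes' kind is not given, so this count is a description only.

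Some related genes kept the lengths of many coding exons, and others kept none. Among Hsp70 genes, Hspa1a with Hspa1b, Hspa1a with Hspa8, Hspa8 with Hspa2 and Hspa8 with Hspa5 shared 0. No rate for unrelated genes is given. Hspa4 and Hspa4l, its testis relative, had 15 of 19 coding exons of the same length in the same order, and Hsph1 and Hspa4 had 14, of 18 and 19. Cct6a and Cct6b, the testis subunit, shared 11, of 13 and 14. Hspa12a and Hspa12b shared 8, of 13 and 12, although they spanned 147923 and 18574 bases. Hsp90aa1 and Hsp90ab1 shared 5 of 10, the last 4 coding exons among them. Among the J-domain genes, Dnaja1 and Dnaja4 shared 3 of 8, Dnajc5 and Dnajc5b shared 2 of 4, and Dnajb1 and Dnajb4 shared 1 of 3. Dnaja1 with Dnaja2 and Dnajb1 with Dnajb5 shared 0. All these counts are for the representative transcripts and can differ for others. Some other Dnajb5 transcripts begin with a coding exon of 211 bases, as Dnajb1 does. The other Dnaja4 transcript begins with a coding exon of 132 bases, as Dnaja1 does. Equal lengths do not show equal sequence, and protein identity was not computed.

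**Figure D4:**
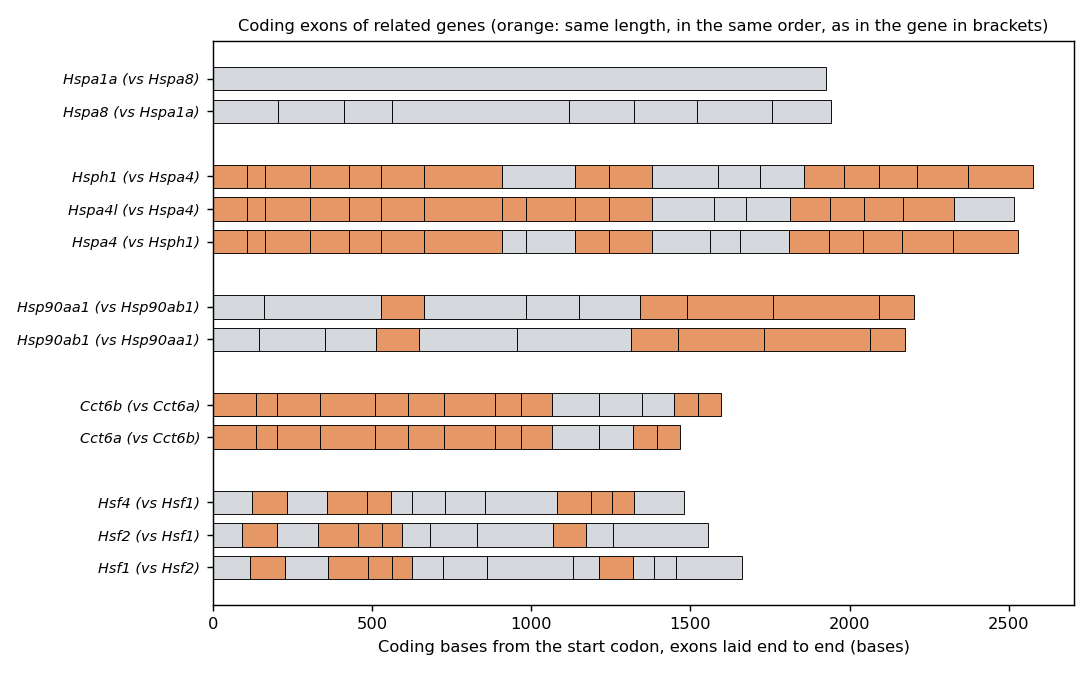
Coding exons of related genes laid end to end from the start codon, in coding bases. Orange exons have the same length, in the same order, as exons of the gene in brackets, and grey exons do not. Hspa1a is 1 block of 1926 bases beside the 8 of Hspa8, while Hspa4l matches Hspa4 in 15 of 19 exons.

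Signal over a gene can be assigned to it alone only where no other gene covers it. Of the members, 23 (24.7%) shared at least 1 base with another symbol, beside 19.2% of all coding genes. A pair of single-exon genes lay wholly inside other genes on the opposite strand. Dnajb3 lay inside 8 Ugt1a genes, which encode enzymes that attach glucuronic acid, and Dnajb7 inside Xpnpep3. The share of all coding genes that lie inside another gene is not given, so this is a description only. Hspa8 held the small nucleolar RNA genes Snord14c and Snord14d, and Cct6a held Snora15. Cct8 overlapped Usp16, Dnajc19 overlapped Fxr1, and Dnajc14 overlapped Ormdl2. Among the inducible genes only Dnaja1, Hspd1 and Hspe1 shared bases with a neighbour, and Hsp90aa1, Hsph1, Hspb1, Dnajb1, Bag3, Hspa1a and Hspa1b shared none.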

How the data were processed

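The 4 libraries (2 auxin, 2 control) were Pol I CUT&Tag, and 1 file was analysed, a 12-column BED annotation of the whole series. The deposited score is 0 in all 50727 rows and so measures nothing, and the other numbers in a row are positions and exon sizes in bases. The submitters' processing notes name the mm10 build, Bowtie2, deepTools, bedtools and FastQC. Tool versions and the origin of the annotation are not given in the sources. Starts, counted from 0 in the file, are printed counted from 1. With no value per library, the planned comparison of auxin with control was not run, and depth is unknown.

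Rows were parsed with Python 3.11.15, pandas 2.3.3 and numpy 2.4.6, and figures drawn with matplotlib 3.10.9. The routines were tested on simulated data. The representative transcript had the longest coding part, with ties going to the longest summed exons. Divergent pairs are any starts of 2 symbols on opposite strands within 1000 bases, overlaps included. The transcripts point apart where the starts do not overlap, and run across each other where they do. Genes were named by rule: single-exon members, the inducible and constitutive lists, Hsf1 to Hsf5, members with a divergent neighbour, related members, those with the 5 most extreme spans and UTRs, those with the most transcripts, and those with an element of 3 units. Others were named after their values were seen. The counts of 5' UTR introns, short 3' UTRs, shared bases and nested genes were also added then. The members and lists were chosen with earlier results of these data known.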

Additional observations from a re-analysis of the deposited data

How the results depend on the processing

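No paired analysis was possible because no library has a value in the file, and for the same reason no library was left out and the other settings planned for occupancy were not run. The set of 93 genes becomes 213 when transcripts are counted and 180 when those of Bag6 are left out, a setting chosen after seeing the data. It stays at 93 on all contigs and is 130 when identical intervals are counted once. The 43 members with several transcripts become 23 when starts must be at least 50 bases apart. The 4 members with a heat shock element become 22 with 2 units and 18 with up to 1 mismatch, and 3 before the start only. The counts of single-exon members (9 to 12) and of members with a divergent neighbour (24 to 34) stayed within 1.5 times under the alternatives tried, as did the UTR medians of all members. By their medians the inducible genes had fewer exons, shorter spans and longer UTRs than the constitutive genes in every setting. This held without Hspd1 and Hspe1, without single-exon genes, and without the 7 CCT genes (the last chosen after seeing the data). It also held within Hsp70 and Hsp90, but that setting had only 3 inducible genes, Hspa1a and Hspa1b among them, against 4 constitutive genes. Families were taken by name in that setting, so Hspa4 of the Hsp110 family counted as Hsp70 and Hsph1 was left out. Limits are those of an annotation: it draws transcripts without saying which are used in these cells, and 18 members had no promoter window.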

Other observations

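The 12 members listed as testis genes from textbook knowledge were split in their gene structure. The list was chosen by hand and need not hold every member known from testis. The coding part lay in 1 exon in 6 of them, beside 12.9% of all 93 members and 15.4% of all coding genes. These 6 were Dnajb3, Dnajb7, Dnajb8, Hspb9, Hspa2 and Hspa1l. The other 6 had introns in the coding part, with Hspa4l at 19 exons over 44753 bases and Dnajc5b, a testis form of the cysteine string protein, at 5 exons over 79616 bases. Their median 3' UTR was 220.5 bases, against 623 bases over all 93 members and 685 over all coding genes. Hsf5 had the longest of the 12 with 2175 bases.

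Genes of the pathway that the name rule leaves out were given the same look. Of 27 such genes, none had 1 exon in all transcripts, and 10 (37.0%) had a divergent neighbour within 1000 bases, beside 13.9% of all coding genes. Tcp1, the CCT subunit whose name does not start with Cct, lay 237 bases from Mrpl18, a protein of the mitochondrial ribosome. Grpel1, a nucleotide exchange factor of mitochondrial Hsp70, lay 330 bases from 2210406O10Rik, and Ahsa1, which stimulates the Hsp90 ATPase, lay 441 bases from Vipas39. Among the prefoldin genes, whose products pass actin and tubulin to CCT, Pfdn6 lay 379 bases from Wdr46 at its nearest start. Pfdn2 lay 29 bases from a start of Nit1 and overlapped it by 692 bases at another pair of starts, and the start of Pfdn4 was overlapped by Cyp24a1 over 718 and by Gm16796 over 698 bases. St13, an Hsp70 co-chaperone, lay 443 bases from Xpnpep3, the gene that holds Dnajb7.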
